A study of Mus musculus with 55 samples.

Results

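Zfp57, Zfp445 and Trim28 encode well known protectors of genomic imprints, and their transcripts were followed in single mouse oocytes and in embryos. The genes were picked by symbol. All 3 were found among the 51734 genes of the oocyte count tables and among the 24421 genes of the allelic tables. Oocyte libraries were made from single cells: 18 wild-type fully grown oocytes (FGOs), 8 Dnmt3L ADD/ADD FGOs (genotype Dnmt3a+/+ with Dnmt3L D124A/D124A), 8 Dnmt3a ADD/ADD FGOs (Dnmt3a ADA/ADA with Dnmt3L+/+), 8 double mutant FGOs that are homozygous for both mutations, and 10 wild-type MII oocytes. The mutations are aspartate-to-alanine substitutions in the ADD domain, which reads unmethylated H3K4, and they are carried in every cell of the mouse. FGOs were taken from adult ovaries at 10 to 12 weeks of age. The methods on in vitro fertilization describe MII oocytes as ovulated after inhibin antiserum and chorionic gonadotropin in females of 11 to 18 weeks. That passage covers the oocytes fertilized for the embryos. For the sequenced MII oocytes no age or treatment is given apart from it. Stage, hormone treatment and age therefore cannot be told apart between MII oocytes and FGOs. The 3 embryos were labelled day 9 and came from double mutant oocytes fertilized in vitro by wild-type JF1 sperm and carried by foster mothers.

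An imprint is DNA methylation laid down at a control region in only the egg or the sperm, and it has to survive the wave of demethylation after fertilization. ZFP57 and ZFP445 are KRAB zinc finger proteins that bind methylated imprinting control regions through their zinc fingers. Their KRAB domain recruits TRIM28 (KAP1), a scaffold that brings the H3K9 methyltransferase SETDB1, HP1 proteins, histone deacetylases and DNA methyltransferases. ZFP57 and TRIM28 stored in the egg are known to act in the early embryo before its own genome takes over.

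In mm10, Zfp57 lies at chr17:37001163-37010635 on the plus strand, Zfp445 at chr9:122844529-122866006 on the minus strand and Trim28 at chr7:12999114-13031035 on the plus strand, as the count tables give them. Their merged exons span 3786, 7409 and 4158 bases. Zbtb45 lies within the span of Trim28 on the opposite strand, and Gm47140 within that of Zfp445. Reads of overlapping genes cannot be told apart without strand, and the strand setting of the counts is not given in the sources used here.

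Oocyte libraries held between 7832458 and 23739871 counts. Libraries parted into a class with under 80% of reads mapped and a class with at least 80%: 8 and 10 of the wild-type FGOs, 3 and 5 of the Dnmt3a ADD/ADD FGOs, 3 and 7 of the MII oocytes, all 8 double mutant FGOs in the lower class and all 8 Dnmt3L ADD/ADD FGOs in the higher. Class and genotype therefore cannot be told apart between those last groups. All 8 oocyte markers were detected in every group, and their summed level had medians of 8186 CPM (counts scaled to a common library total) in wild-type FGOs, 6890.2 in the Dnmt3L mutant, 6326 in the Dnmt3a mutant, 9522 in the double mutant and 6348 in MII oocytes. Against wild-type FGOs, 5 of the 8 were called lower in the Dnmt3L mutant, 6 in the Dnmt3a mutant and 5 in MII oocytes, and 3 were called higher in the double mutant. Of all genes 6.13%, 15.7%, 39.1% and 12.2% were called in these comparisons, in either direction. Among wild-type FGOs alone, 3 of the 8 were called lower in the higher than in the lower mapped class, where 25.4% of all genes were called. The median log2 fold change of the 8 there was -0.20. The summed level of 10 granulosa cell markers had medians of 63.3, 56.0, 48.3, 43.5 and 36.4 CPM in the same order, and Amh was at 0 in all 10 MII libraries. Of these markers 2, 4, 6 and 8 were called lower in the Dnmt3L mutant, the Dnmt3a mutant, the double mutant and MII oocytes. With a fold change over 2 as well, 2, 4, 6 and 7 were called. The median log2 fold change of the 10 was -0.544, -0.629, -1.692 and -3.775, so the sums do not stand for a typical marker. The part of these differences in the values below was not tested. In bulk counts of one cell, less RNA of a gene and more RNA of all others cannot be told apart.

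Zfp57 was by far the most abundant of the 3 transcripts and stood among the highest in the oocyte, whereas Zfp445 was low. Per exonic length, the level was 390 ± 54.9 RPKM for Zfp57 in wild-type FGOs (SD, n = 18), rank 49 of 15784 genes. Trim28 had 54.7 ± 4.37 RPKM, rank 943, and Zfp445 had 7.22 ± 1.14 RPKM, rank 5915. Over all 52 libraries the RPKM ranged from 285 to 530 for Zfp57, from 43.7 to 63.6 for Trim28 and from 4.75 to 10.4 for Zfp445. The 3 ranges did not overlap, so the order Zfp57, Trim28, Zfp445 held in every oocyte. At these levels the raw count was at least 12313 for Zfp57, 1661 for Trim28 and 337 for Zfp445 in every library. Of the other genes of the pathway, Dppa3, which shields maternal methylation in the zygote, had 564 ± 52.9 RPKM in wild-type FGOs, and the maintenance methyltransferase Dnmt1 had 556 ± 59.0 RPKM. Setdb1 had 56.9 ± 6.04 RPKM. Among the paralogs of Trim28, Trim24 had 53.4 ± 4.13 RPKM, Trim33 had 11.4 ± 1.34 and Trim66 had 0.196 ± 0.0775. The exonic length is that of merged gene models and may exceed the transcript used in the oocyte.

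**Figure D1:**
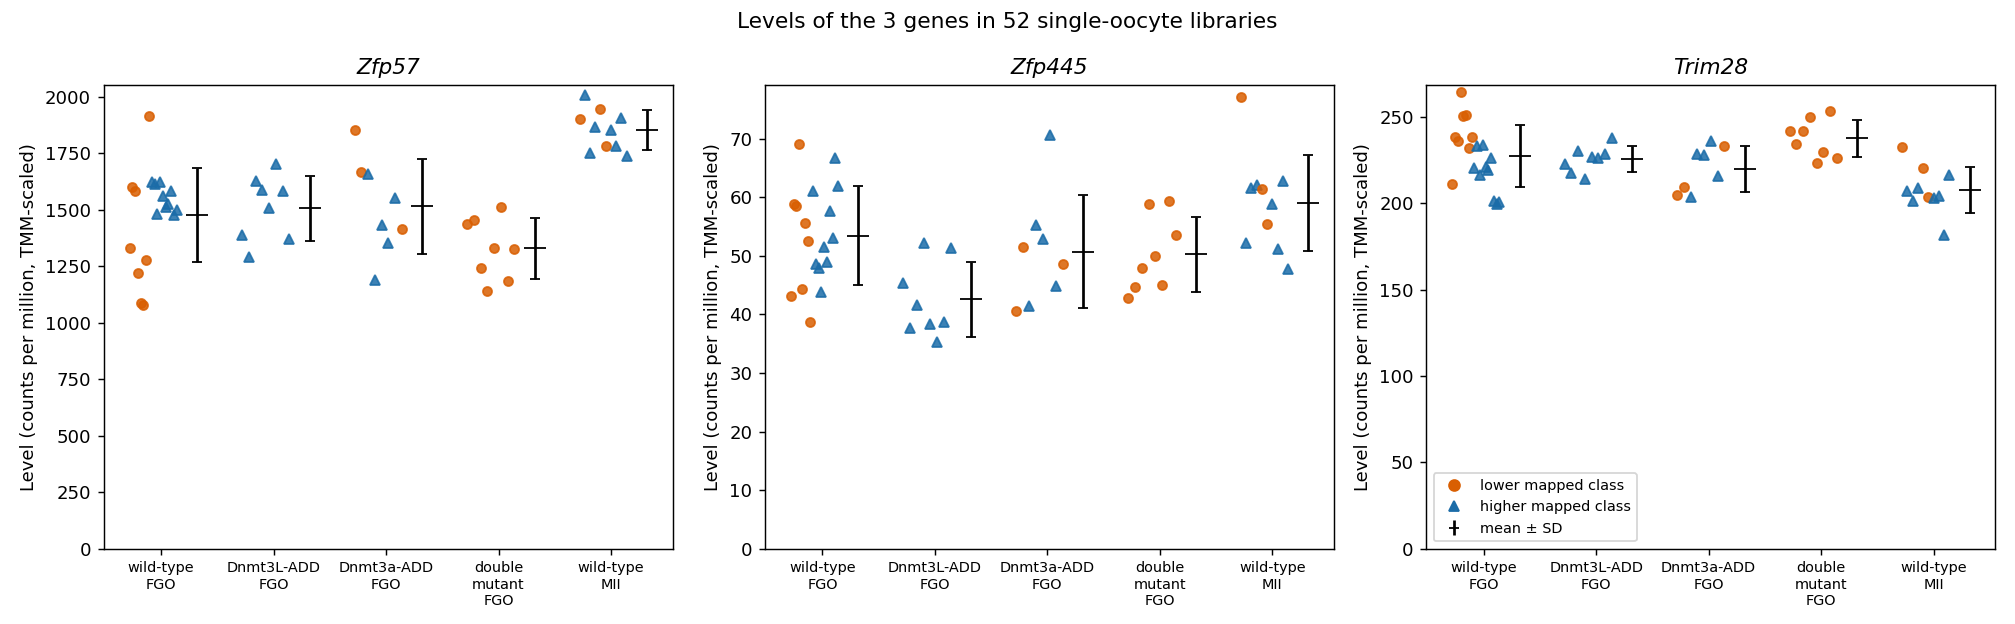
Level of Zfp57, Zfp445 and Trim28 in each of the 52 oocyte libraries, in TMM-scaled CPM (linear axis from 0), by group. Circles are libraries of the lower and triangles of the higher mapped class, bars are mean ± SD. For Zfp57 the MII oocytes lie between 1737 and 2006 CPM, above 17 of 18 wild-type FGOs. For Zfp445 the Dnmt3L ADD/ADD FGOs lie between 35.2 and 52.1 CPM.

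Whether the ADD mutations altered the protectors themselves was asked first. CPM values were scaled by TMM, so that a gene can be compared between libraries. Zfp57 had a lowest, median and highest level of 1079.9, 1518 and 1913 CPM in the 18 wild-type FGOs. It had 1289, 1546 and 1700.4 CPM in the 8 Dnmt3L ADD/ADD FGOs and 1189.6, 1493 and 1852 CPM in the 8 Dnmt3a ADD/ADD FGOs. The double mutant FGOs had 1139, 1329 and 1511 CPM. All 8 double mutant oocytes were below the wild-type median, but all of them lay within the wild-type range. The log2 fold change of Zfp57 was 0.03 (SE 0.077) in Dnmt3L ADD/ADD, 0.04 (SE 0.077) in Dnmt3a ADD/ADD and -0.16 (SE 0.078) in double mutant FGOs. None passed edgeR's quasi-likelihood test at an adjusted p under 0.05 (adjusted p = 0.858, 0.780 and 0.165). The 95% interval of the double mutant value ran from -0.32 to -0.0027, so a moderate decrease was within what these libraries allow. Against the 8 wild-type FGOs of its own mapped class, the double mutant value was -0.080 (adjusted p = 0.877).

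Zfp445 was lower in Dnmt3L ADD/ADD FGOs than in wild-type FGOs. Its lowest, median and highest levels were 38.6, 52.8 and 69.1 CPM in the 18 wild-type FGOs and 35.2, 40.2 and 52.1 CPM in the 8 Dnmt3L ADD/ADD FGOs. All 8 mutant oocytes were below the wild-type median, 3 of them were below every wild-type oocyte, and the ranges overlapped. The log2 fold change was -0.33 (SE 0.095, 95% interval -0.52 to -0.14), or 0.794-fold, with an adjusted p of 0.0285 in edgeR. Zfp445 was thus the 1 of 3 genes called, against 6.13% of the 15726 genes tested. It had a similar value against the wild-type FGOs of the same mapped class (-0.35, adjusted p = 0.0287). The call rested on a narrow margin: it was lost when any 1 of 5 Dnmt3L ADD/ADD libraries (replicates 2, 3, 5, 6 and 7) was left out, with adjusted p between 0.0537 and 0.0798, and without a filter on low counts (adjusted p = 0.0559). Under the study's additional requirement of a fold change over 2, which 0.655% of genes met, Zfp445 was not called.

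In the other mutants Zfp445 did not pass the test. The Dnmt3a ADD/ADD FGOs had 40.6, 50.1 and 70.7 CPM and a log2 fold change of -0.07 (SE 0.093, adjusted p = 0.634 in edgeR). The double mutant FGOs had 42.8, 48.9 and 59.4 CPM and a log2 fold change of -0.10 (SE 0.093, adjusted p = 0.516). Here 15.7% and 12.2% of all genes were called, 2.05% and 1.65% with a fold change over 2, and none of the 3 protectors was. That Zfp445 was called in the Dnmt3L mutant and not in the others does not show that they differ. Tested directly, Zfp445 was 0.24 (SE 0.11, adjusted p = 0.107) higher on the log2 scale in double mutant and 0.26 (SE 0.11, adjusted p = 0.626) higher in Dnmt3a ADD/ADD than in Dnmt3L ADD/ADD FGOs. All 8 libraries of either group were above the Dnmt3L ADD/ADD median, yet neither difference passed. The 95% intervals ran from 0.015 to 0.46 and from 0.039 to 0.48.

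Trim28 had the smallest relative spread of the 3 genes in wild-type FGOs (coefficient of variation 7.99%) and did not pass the test in any mutant. Its lowest, median and highest levels were 199, 229 and 265 CPM in wild-type FGOs, 214, 227 and 238 CPM in Dnmt3L ADD/ADD FGOs, 204, 222 and 236 CPM in Dnmt3a ADD/ADD FGOs and 223, 238 and 253 CPM in double mutant FGOs. Every mutant library lay within the wild-type range. The log2 fold changes were -0.01 (SE 0.042), -0.05 (SE 0.042) and 0.06 (SE 0.042), with adjusted p of 0.885, 0.469 and 0.387 in edgeR. The widest of the 3 intervals ran from -0.13 to 0.037, so changes of the size seen for Zfp445 lie outside them.

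Between the mutants, 30.9% of genes were called in double mutant against Dnmt3a ADD/ADD FGOs, 24.2% in double mutant against Dnmt3L ADD/ADD FGOs and 0.0127% in Dnmt3a ADD/ADD against Dnmt3L ADD/ADD FGOs. None of the 3 protectors was among them. Zfp57 had log2 fold changes of -0.20 (SE 0.091, adjusted p = 0.0933) and -0.19 (SE 0.091, adjusted p = 0.122) in the double mutant against the Dnmt3a and the Dnmt3L single mutant. Trim28 had 0.10 (SE 0.049, adjusted p = 0.107) and 0.07 (SE 0.049, adjusted p = 0.318). These comparisons share the double mutant libraries with each other and with the comparison to wild type. Over the same contrasts all 8 oocyte markers were called higher in the double mutant. The contrast with the Dnmt3L mutant sets the lower against the higher mapped class throughout. In wild-type FGOs 3 of the 8 were called lower in the higher class, with a median log2 fold change of -0.20. The part of the class in the marker values was not tested.

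**Figure D2:**
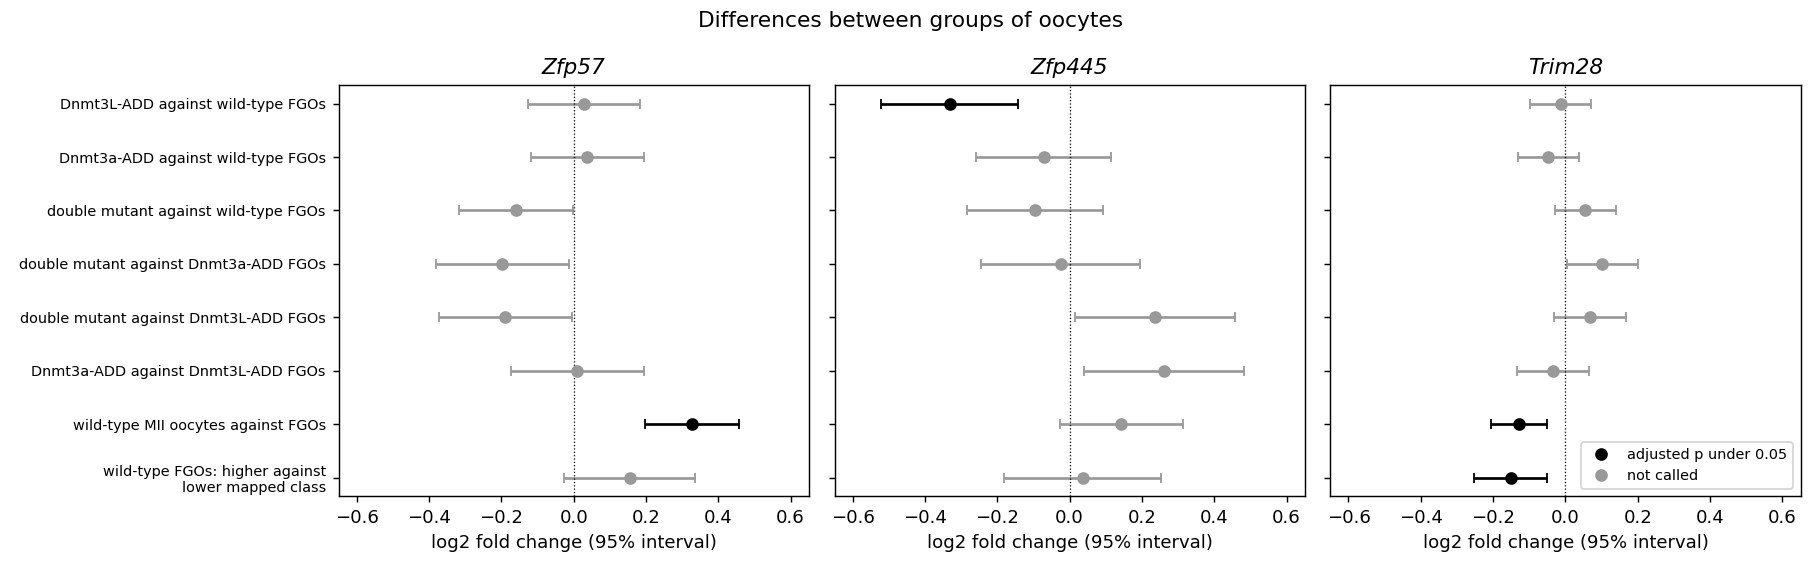
Log2 fold change of each gene (x axis) in the 7 comparisons of oocyte groups and between the mapped classes of wild-type FGOs (y axis). Points are edgeR estimates, bars are 95% intervals not adjusted for the number of genes, and black marks an adjusted p under 0.05. Zfp445 is called at -0.33 in Dnmt3L ADD/ADD FGOs, and Zfp57 at 0.33 and Trim28 at -0.13 in MII oocytes.

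The transcripts left for the egg were followed from the FGO to the MII oocyte. Zfp57 was higher in MII oocytes: its lowest, median and highest levels were 1737, 1862 and 2006 CPM in the 10 MII oocytes against 1079.9, 1518 and 1913 CPM in the 18 wild-type FGOs. A single FGO, replicate 8 at 1913 CPM, reached into the MII range, and the other 17 were below every MII oocyte. The log2 fold change was 0.33 (SE 0.065, 95% interval 0.20 to 0.46), or 1.26-fold, with an adjusted p of 6.9e-05 in edgeR. Within the lower mapped class it was 0.45 (adjusted p = 0.0250) and within the higher class 0.26 (adjusted p = 0.000406). The coefficient of variation was 4.81% in MII oocytes and 14.1% in FGOs, but within the higher mapped class it was 5.16% in 7 MII oocytes and 3.78% in 10 FGOs. Per length, Zfp57 rose from rank 49 to rank 35.

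Trim28 was slightly lower in MII oocytes. It had 182, 206 and 233 CPM there against 199, 229 and 265 CPM in FGOs, and 9 of 10 MII oocytes were below the FGO median while the ranges overlapped. The log2 fold change was -0.13 (SE 0.039, 95% interval -0.21 to -0.052), or 0.914-fold, with an adjusted p of 0.00645 in edgeR. Within a mapped class, where fewer libraries were compared, the call was lost, at -0.12 (adjusted p = 0.202) in the lower and -0.091 (adjusted p = 0.105) in the higher class. With the class as a covariate over all libraries it held, at -0.12 (adjusted p = 0.00923). Zfp445 had 47.8, 60.1 and 77.1 CPM in MII oocytes, and its log2 fold change of 0.14 (SE 0.084, adjusted p = 0.175) did not pass. These values stand beside a comparison in which 39.1% of 15784 genes were called, 9.2% with a fold change over 2. CPM are shares of a library, and the total RNA per oocyte was not measured.

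Wild-type FGOs of both mapped classes show how far the genes move without a change of genotype. In 8 FGOs of the lower class the lowest, median and highest Zfp57 levels were 1079.9, 1304 and 1913 CPM, and in 10 of the higher class 1475, 1543 and 1623 CPM. The coefficient of variation was 20.9% in the lower and 3.78% in the higher class. The log2 difference of higher against lower class was 0.16 (SE 0.087, adjusted p = 0.196 in edgeR). Trim28 was lower in the higher class by 0.15 on the log2 scale (-0.15, SE 0.048, adjusted p = 0.0260), beside -0.13 in MII oocytes over all libraries. Zfp445 had 0.04 (SE 0.10, adjusted p = 0.830). Of all 14664 genes, 25.4% were called between the classes. The Dnmt3a ADD/ADD value of Zfp57 was 0.25 in the lower class and -0.11 in the higher, and that of Trim28 was -0.15 and 0.034. The difference between the classes did not pass for either gene (adjusted p = 0.218 and 0.146 in edgeR).

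The 25 genes listed as partners of the protectors were examined for the same contrasts, and 24 could be tested. Zfp708, a KRAB zinc finger gene, had at most 3 counts in wild-type FGOs and 0 in MII oocytes. The list holds 11 partners of TRIM28, its 3 paralogs, 6 other KRAB zinc finger genes and 5 genes of methylation maintenance. Against wild type, 1 gene was called higher and 1 lower in the Dnmt3L mutant, 2 higher and 3 lower in the Dnmt3a mutant, and 1 higher and 2 lower in the double mutant. These are 2, 5 and 3 of 24 genes, close to the 6.13%, 15.7% and 12.2% called among all genes. None of the 24 was called in the double mutant against wild-type FGOs of its own mapped class, where 1.04% of all genes were called, or with the class as a covariate, where 2.61% were. The median log2 fold change over the 24 was -0.017, 0.023 and 0.022, beside -0.030, -0.031 and -0.0088 over all genes. No gene of the list passed with a fold change over 2 in a mutant.

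Among the partners that TRIM28 brings to DNA, Cbx5 (HP1 alpha) was called at 0.14 (SE 0.043, adjusted p = 0.0406 in edgeR) on the log2 scale in the Dnmt3L mutant, and had 0.12 without passing when only the higher class was compared (adjusted p = 0.130). In that class 3 other listed genes were called lower, beside 7.84% of all genes. They were Atf7ip (-0.19, adjusted p = 0.000796), Cbx1 (-0.15, adjusted p = 0.0485) and the paralog Trim24 (-0.11, adjusted p = 0.0477). With the class as a covariate only Atf7ip was called (-0.17, adjusted p = 0.00999). In the Dnmt3a mutant 3 TRIM28 partners were called against all wild-type FGOs: Cbx1 (HP1 beta) fell by 0.19 (adjusted p = 0.00522), the chromatin remodeller Smarcad1 rose by 0.22 (adjusted p = 0.0178) and the deacetylase Hdac1 fell by 0.73 (adjusted p = 0.00964). Hdac1 was low, with 6.81 ± 2.22 CPM in wild-type FGOs. Cbx3 and Hdac1 have processed copies elsewhere in the genome and KRAB zinc finger genes have close relatives, so their counts are uncertain where reads could be split. Within a mapped class fewer libraries were compared. There Smarcad1 passed in the higher class only (0.21, adjusted p = 0.0472), Cbx1 also in the higher class only (-0.23, adjusted p = 0.00822), and Hdac1 in neither (-0.47 and -1.19, adjusted p = 0.121 and 0.0646 in the higher and lower class). With the class as a covariate over all libraries all 3 were called (Smarcad1 0.21, Cbx1 -0.19 and Hdac1 -0.73, adjusted p = 0.0178, 0.00185 and 0.0101). In the Dnmt3a mutant Chd4 was called in the lower class only (0.42, adjusted p = 0.0214), and not over all libraries (0.22, adjusted p = 0.0768). Chd4 and Setdb1 were also called there with the class as a covariate (0.21 and 0.16, adjusted p = 0.0285 and 0.0498). In double mutant FGOs the H3K9 methyltransferase Setdb1 had -0.20 (SE 0.059, adjusted p = 0.0217) and the NuRD remodeller Chd4 had -0.27 (SE 0.088, adjusted p = 0.0364) against all wild-type FGOs. Against those of the lower class, to which all double mutant libraries belong, the values were -0.12 (adjusted p = 0.637) and -0.030 (adjusted p = 0.941). Between the higher and lower class of wild-type FGOs, Setdb1 had 0.16 (adjusted p = 0.0779) and Chd4 had 0.42 (adjusted p = 0.000453).

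Of the other KRAB zinc finger genes, Gm15446 had -0.23 in Dnmt3L ADD/ADD FGOs (adjusted p = 0.0353 in edgeR), but -0.11 when only the higher class was compared (adjusted p = 0.252), and it had -0.27 in the higher against the lower class of wild-type FGOs (adjusted p = 0.00530). Zfp809, which silences proviruses, fell by 0.73 in the Dnmt3a mutant (adjusted p = 0.00352) and had -0.47 and -0.49 in the Dnmt3L and the double mutant without passing (adjusted p = 0.0910 and 0.0506). Within the higher and the lower class, where fewer libraries were compared, the Dnmt3a values were -0.67 and -0.77 and did not pass (adjusted p = 0.0720 and 0.0659). With the class as a covariate over all libraries Zfp809 was called in the Dnmt3a mutant (-0.71, adjusted p = 0.00367). Zfp568, a repressor of a placental Igf2 transcript, had 0.25 in double mutant FGOs (adjusted p = 0.0343) and 0.21 within the lower class (adjusted p = 0.491). In the maintenance group, the deubiquitinase Usp7 rose by 0.21 in Dnmt3a ADD/ADD FGOs (adjusted p = 0.00822) and passed within both classes, at 0.11 in the higher (adjusted p = 0.0435) and 0.34 in the lower (adjusted p = 0.0285), while Dnmt1, Uhrf1, Dppa3 and Ctcf were not called in any mutant against wild type.

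Between the mutants the list had 2 genes higher and 5 lower in the double mutant than in Dnmt3a ADD/ADD FGOs, where 30.9% of all genes were called. Hdac1 (0.88) and Gm15446 (0.29) were higher, and Setdb1 (-0.36), Chd4 (-0.49), Smarcad1 (-0.26), Atrx (-0.34) and Usp7 (-0.32) were lower on the log2 scale. Within the lower class, where 11% of all genes were called, 4 of these 7 passed: Hdac1 (1.23), Setdb1 (-0.41), Chd4 (-0.45) and Usp7 (-0.30). Against Dnmt3L ADD/ADD FGOs, where 24.2% of all genes were called, Zfp568 (0.34), Zfp932 (0.28) and Gm15446 (0.35) were higher, and Setdb1 (-0.28), Chd4 (-0.41) and Usp7 (-0.25) were lower. This contrast sets the lower against the higher mapped class throughout. The higher minus lower class values of wild-type FGOs were -0.28 for Zfp932, -0.27 for Gm15446, 0.42 for Chd4, 0.26 for Usp7 and 0.16 for Setdb1. With the class as a covariate no listed gene was called against Dnmt3L ADD/ADD FGOs, where 1.18% of all genes were. In that fit the class effect comes from wild-type and Dnmt3a ADD/ADD FGOs, since the 2 groups compared share no class. It therefore cannot part class from genotype in this contrast. Both comparisons with a single mutant share the double mutant libraries. Between the single mutants, where 0.0127% of all genes were called, no listed gene was.

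In MII oocytes 7 of the 24 genes rose and 4 fell, beside 39.1% called among all genes, with a median log2 fold change of 0.023 beside -0.046 over all genes. Setdb1 rose by 0.31 (SE 0.049, adjusted p = 1.5e-06 in edgeR), Chd4 by 0.23, Trim24 by 0.22, Ctcf by 0.17, Atf7ip by 0.12, Cbx1 by 0.11 and Uhrf1 by 0.11. Dnmt1 fell by 0.82 (SE 0.054, adjusted p = 2.4e-18), from 556 ± 59.0 RPKM in FGOs to 315 ± 35.3 RPKM in MII oocytes. Cbx3 (HP1 gamma) fell by 1.08 (adjusted p = 0.000114) from a low level of 3.79 CPM, the only listed gene with a fold change over 2. Atrx fell by 0.21 and Gm15446 by 0.16. With the class as a covariate over all libraries the same 11 genes were called in the same directions, beside 37.5% of all genes. Within a mapped class fewer libraries were compared. There Setdb1, Trim24 and Dnmt1 passed in both classes, and the other 8 passed in 1 class or in neither. Of all genes 22.7% were called in the higher and 19.1% in the lower class.

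**Figure D3:**
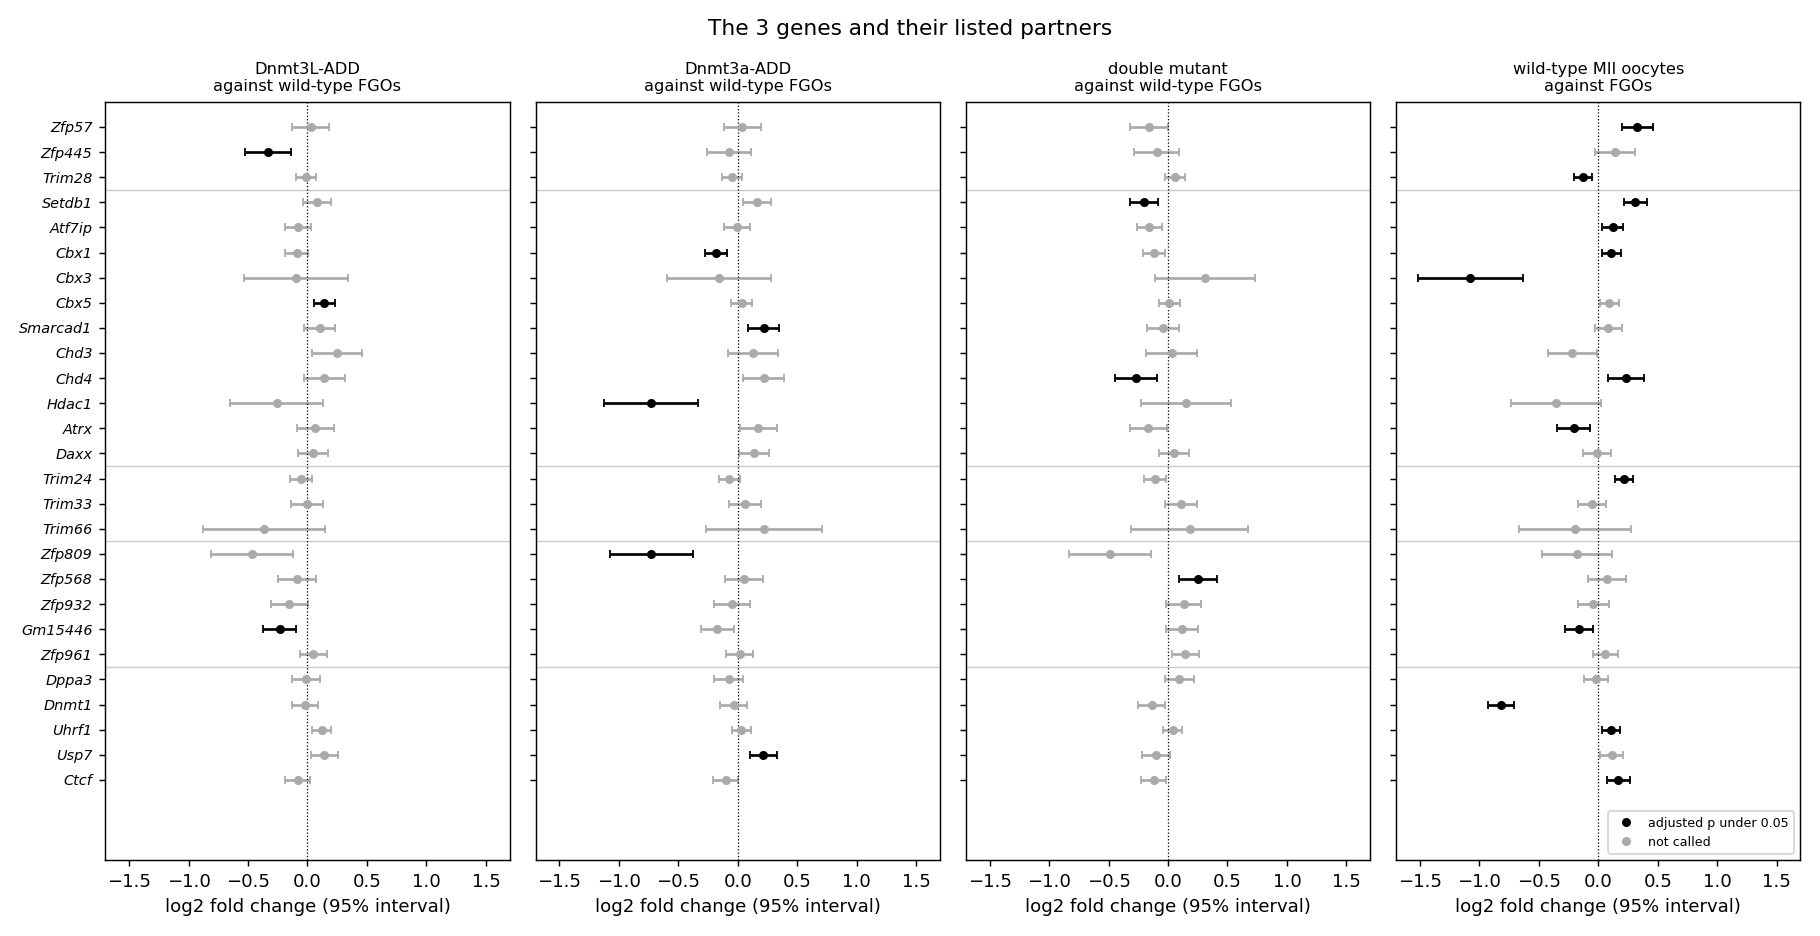
Log2 fold change (x axis, with 95% interval) of the 3 protectors and 24 listed partners (y axis) in 4 comparisons. Black marks an adjusted p under 0.05, and lines part the protectors, TRIM28 partners, paralogs, other KRAB zinc finger genes and maintenance genes. In the MII panel Dnmt1 stands at -0.82 and Cbx3 at -1.08, while most genes lie near 0 in the mutants.

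Across the 52 oocytes no pair of the 3 protectors had a positive correlation above 0.1. The correlation of log2 CPM was -0.62 between Zfp57 and Trim28, 0.016 between Zfp57 and Zfp445 and -0.052 between Zfp445 and Trim28. The libraries share genotype, stage and mapped class within groups, so these are descriptions. After the mean of each group was removed, the values were -0.40, -0.32 and 0.17 in the same order. The genes whose pattern over the 52 libraries was most like that of Zfp57, among 8314 with a mean of at least 10 CPM, were Hmgn1 (r = 0.951), which encodes a nucleosome-binding protein, Polr2c (0.951), a subunit of RNA polymerase II, and Atp2a2 (0.946), a calcium pump. Within groups these values were 0.936, 0.929 and 0.908. For Trim28 they were Zfp606 (0.765), Smad5 (0.730) and Uqcrfs1 (0.723). For Zfp445, whose counts are the lowest, the closest were Rcan1 (0.591), Rwdd1 (0.569) and Dnajc18 (0.564).

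Whether the embryo used both parental copies of the protector genes was read from the allelic counts. The maternal genome came from the double mutant oocyte and the paternal genome was wild type. Trim28 had 3108 maternal and 3250 paternal counts in embryo 1, 3272 and 3011 in embryo 2 and 3750 and 3695 in embryo 3. Its maternal share was 48.9% (Wilson 95% interval 47.7 to 50.1), 52.1% (50.8 to 53.3) and 50.4% (49.2 to 51.5), and the median of chromosome 7 genes was 51.3%, 58.2% and 51.2% in the same embryos. Trim28 was at percentile 25.7 of that chromosome in embryo 2. The mean share was 50.4% ± 1.60 (SD, n = 3).

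Zfp57 had 164 maternal and 137 paternal counts in embryo 1, 195 and 126 in embryo 2, and 111 and 136 in embryo 3. The shares of 54.5% (48.8 to 60.0), 60.7% (55.3 to 65.9) and 44.9% (38.9 to 51.2) lay on both sides of equality, with a mean of 53.4% ± 7.96, beside chromosome 17 medians of 50.6%, 56.3% and 51.4%. With 247 to 321 allelic counts per embryo, their intervals were the widest of the 3 genes.

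Zfp445 had 690 maternal and 733 paternal counts in embryo 1, 1375 and 542 in embryo 2, and 652 and 583 in embryo 3. Its maternal share was 48.5% (45.9 to 51.1) and 52.8% (50 to 55.6) in embryos 1 and 3 but 71.7% (69.7 to 73.7) in embryo 2. Embryo 2 stood apart on the whole chromosome: the median share of 719 genes on chromosome 9 was 71.0% in it, against 52.2% and 51.8% in embryos 1 and 3, and its median over autosomal genes was 58.8% against 51.4% and 51.3%. Zfp445 was at percentile 54.4 among chromosome 9 genes in embryo 2. Chromosome 6 also had a median of 71.2% in that embryo, while chromosomes 7 and 17 had 58.2% and 56.3%.

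No allelic difference passed the test. With the embryo as a block, the log2 ratio of maternal over paternal counts was 0.20 (SE 0.25, adjusted p = 0.686 in edgeR) for Zfp57, 0.47 (SE 0.31, adjusted p = 0.458) for Zfp445 and 0.03 (SE 0.095, adjusted p = 0.898) for Trim28. The 95% intervals ran from -0.45 to 0.85, from -0.34 to 1.28 and from -0.22 to 0.27. Of 10805 genes tested, 0.555% were called, and the median log2 ratio over all of these genes was 0.24. Without embryo 2 the ratios were -0.015, 0.037 and -0.022, so the values of Zfp57 and Zfp445 rest on that embryo. Scaled by the chromosome median of each embryo, they were 0.047, -0.027 and -0.17. Of the 25 listed partners, 16 could be tested and none was called in edgeR, and the mean maternal shares of these 16 lay between 32.9% for Cbx3 and 79.9% for the X-linked Atrx. At an unadjusted p under 0.05 stood 3 of the 16, beside 17.5% of all genes tested. They were Cbx3 (-1.07), Zfp568 (0.55) and Uhrf1 (0.32) on the log2 scale, with adjusted p between 0.153 and 0.25. Allelic counts depend on where the parental genomes differ in sequence and do not compare levels between genes.

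**Figure D4:**
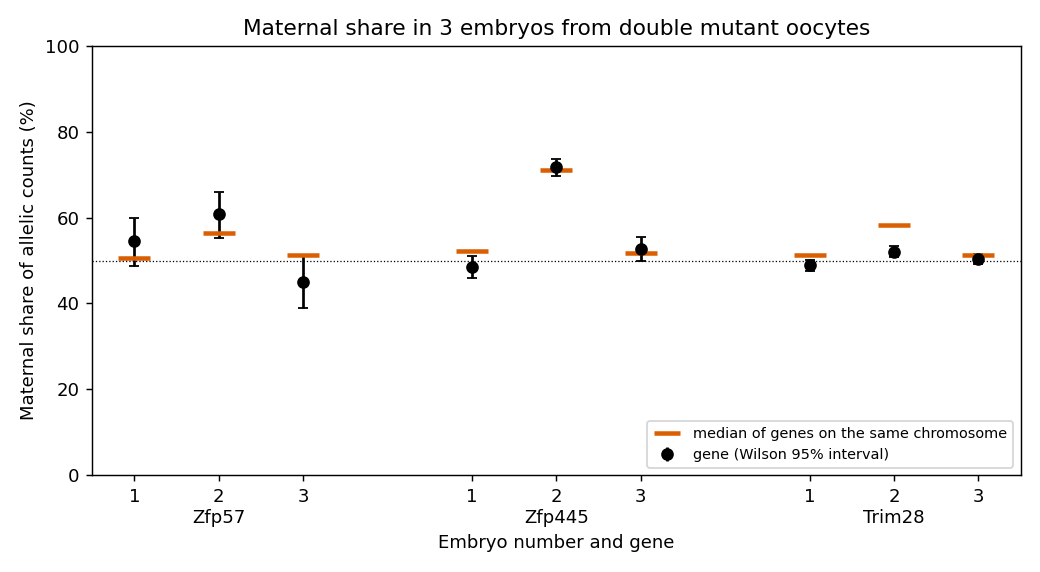
Maternal share of allelic counts (y axis, percent, from 0 to 100) of Zfp57, Zfp445 and Trim28 in each of the 3 embryos (x axis). Points carry Wilson 95% intervals, which cover counting error only, and the horizontal dashes are the median of genes on the same chromosome in that embryo. Zfp445 in embryo 2 stands at 71.7%, beside a chromosome median of 71.0%.

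The embryos also differed in other genes. Summed over 5 markers, embryonic genes had 2274, 54.2 and 111 CPM of allelic counts in embryos 1, 2 and 3, most of it embryonic globin in embryo 1. Summed over 5 decidua markers the values were 22.0, 39.4 and 27.6 CPM, most of it from Bmp2 and Wnt4, which were read from both alleles (55 maternal and 44 paternal counts of Bmp2 in embryo 1) and which embryos also express. Prl8a2, a hormone of the decidua, had 3, 53 and 13 counts, all of them assigned to the maternal allele, and the highest was in embryo 2. The methods name ICR females as foster mothers, so decidua carries neither parental genome of the embryo. The summed maternal share of the 5 decidua markers was 50% in embryo 1, 67.1% in embryo 2 and 50.8% in embryo 3. Prl3c1 and Cyp11a1 were at 0 in embryo 1. The part of decidua in the shares of the protectors was not tested.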

How the data were processed

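Single-oocyte libraries were made with the SMART-Seq HT kit and embryo libraries from poly(A) RNA. The authors aligned reads to mm10 with STAR. For counting, featureCounts and HTSeq are named. The authors deposited raw counts per gene for oocytes and maternal and paternal counts for embryos. The annotation release, the strand setting, the treatment of reads with several positions and the allele assignment are not given in the sources used here. Of the allelic tables, 8 value columns were not used.

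The quasi-likelihood test of edgeR 4.0.16 (R 4.3.3) was run in 1 fit of 42 FGOs and 1 of all 52 oocytes, after filterByExpr (minimum count 10) and TMM. Genes were called at a p under 0.05 after Benjamini-Hochberg adjustment over all genes. SEs were computed from the F statistic. Alleles were tested in genes with at least 10 allelic counts in each embryo, with the embryo total as library size and the embryo as block. RPKM is TMM-scaled CPM per kilobase of merged exons. DESeq2 1.42.0 was an alternative, with other normalization, no filter, robust estimation, 2 groups only, mapped class, replicate block and leaving out each library. The functions were tested on simulated data. Figures were drawn with matplotlib 3.10.9. The genes, lists and tests were chosen with earlier results of these data known. The mapped class was taken from the study's read statistics. The test of differences between classes and the listed genes within a class were added after values were seen. Genes named were the 3 protectors, listed genes that were called, and the 3 most alike in pattern. Others (Dppa3, Trim33, Trim66, Zfp708, the listed genes named in embryos and single markers) were named after their values were seen.

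In the FGO fit edgeR gave a biological coefficient of variation of 25.2%. No 2 libraries of a group agreed within counting noise (lowest chi-square per degree of freedom 5.39 over 282 pairs). The labels do not say which oocytes came from the same female, so p-values measure the spread between oocytes. Wilson intervals (95%) cover counting error only.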

Additional observations from a re-analysis of the deposited data

Results flagged for a closer look

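Zfp445 in MII replicate 1 stood apart from the other 9 MII oocytes, at 77.1 CPM against 62.8 CPM in the nearest, a gap of 0.489 of the whole range. Of 12 groups of 8 or 10 libraries examined for the 3 genes this was the only one, and chance flags about 1 in 20. Each library of the comparison left out in turn, the log2 fold change of Zfp445 in MII oocytes stayed between 0.094 and 0.18 and did not pass.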

How the results depend on the processing

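Over the alternatives other than leaving out a library, 170 of 192 values kept their direction and their side of the threshold, 16 changed sign, 4 calls were lost and 2 were gained. The 16 are values near 0 or with wide intervals, none of them called. For Trim28, the log2 fold change was 0.034 in Dnmt3a ADD/ADD FGOs and 0.054 in Dnmt3L ADD/ADD FGOs within the higher mapped class, 0.028 in Dnmt3L ADD/ADD FGOs and -0.020 in the double mutant against Dnmt3L ADD/ADD FGOs with the class as covariate, and -0.034 in double mutant FGOs within the lower class. For Zfp57, it was -0.11 in the Dnmt3a mutant, -0.040 in the Dnmt3L mutant and -0.068 in Dnmt3a ADD/ADD against Dnmt3L ADD/ADD FGOs within the higher class. For Zfp445, the double mutant against Dnmt3a ADD/ADD FGOs had 0.030 with the class as covariate and 0.080 within the lower class. In embryos, scaling each allelic column to its own total gave -0.27 for Trim28 and -0.090 for Zfp57, and scaling by chromosome -0.17 for Trim28 and -0.027 for Zfp445. The call for Zfp445 in Dnmt3L ADD/ADD FGOs was lost without a filter on low counts (-0.33), and that for Trim28 in MII oocytes within the lower (-0.12) and higher (-0.091) mapped class, where fewer libraries were compared. The double mutant against Dnmt3L ADD/ADD value of Zfp57 was called with only those groups in the fit (-0.19). The other causes were not tested.

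Deviations from the group mean had a mean correlation of -0.0146 over 80 pairs of libraries with equal replicate numbers. The values ran from -0.693 to 0.563, and 22 were over 0.1. Pairs of unequal numbers were not compared, so whether libraries of some numbers go together was not tested. With the replicate block, Zfp445 in Dnmt3L ADD/ADD FGOs was -0.29 and not called, Trim28 in Dnmt3a ADD/ADD FGOs was -0.12 and called (adjusted p = 0.0444 in edgeR), Trim28 in double mutant FGOs was -0.019 and Zfp57 in Dnmt3a ADD/ADD against Dnmt3L ADD/ADD FGOs was -0.0030. The block changed no other call for the 3 genes.

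With 1 library left out, Zfp445 in Dnmt3L ADD/ADD FGOs ranged from -0.38 to -0.30, Trim28 there from -0.025 to 0.00098, Zfp445 in double mutant against Dnmt3a ADD/ADD from -0.058 to 0.074, Zfp57 in the same contrast from -0.23 to -0.14 (called once, adjusted p = 0.0460, without Dnmt3a ADD/ADD replicate 4), Zfp57 in Dnmt3a ADD/ADD against Dnmt3L ADD/ADD from -0.044 to 0.047 and Zfp57 in Dnmt3a ADD/ADD from -0.018 to 0.066. In embryos the ranges were -0.015 to 0.44 for Zfp57, 0.037 to 0.75 for Zfp445 and -0.022 to 0.071 for Trim28.

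The count of listed genes called with a fold change over 2 was 0 in each comparison of mutants where some were called (2 in the Dnmt3L, 5 in the Dnmt3a and 3 in the double mutant against wild type, 7 and 6 in the double mutant against either single mutant), 0 of 7 between mapped classes and 1 of 11 in MII oocytes. Of all genes, 0.655%, 2.05%, 1.65%, 5.86% and 4.03% passed with that fold change in the comparisons of mutants, in the same order. Between mapped classes 3.72% did, and in MII oocytes 9.2%. DESeq2 called 5 listed genes in double mutant FGOs at an adjusted p under 0.05. Its share among all genes was not computed, so that count has nothing to be read against. Mapped class as a covariate was chosen after seeing the data, and shares called among all genes follow each count. The counts then were 1 in the Dnmt3L mutant (4.27%), 7 in the Dnmt3a mutant (16.2%) and 0 in the double mutant (2.61%). The double mutant against the Dnmt3a and the Dnmt3L mutant had 4 (12.9%) and 0 (1.18%), and MII oocytes had 11 (37.5%). The double mutant and the Dnmt3L mutant share no class, so the count between them cannot part class from genotype. Between the single mutants the count was 0 (0.0954%). Within the higher class the counts were 3 in the Dnmt3L mutant (7.84%), 3 in the Dnmt3a mutant (8.59%) and 6 in MII oocytes (22.7%), and 0 between the single mutants (0.109%). Within the lower class they were 2 in the Dnmt3a mutant (6.44%), 0 in the double mutant (1.04%) and 6 in MII oocytes (19.1%). The double mutant against the Dnmt3a mutant had 4 there (11%).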
